A study of Drosophila melanogaster with 3 samples.

Results

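The genes described here encode the proteins of the small subunit of the cytoplasmic ribosome of Drosophila melanogaster. They were taken from the Ensembl gene models as the protein-coding genes on the major chromosome arms whose symbol starts with RpS and a digit, together with sta. The rule gave 39 of 13945 protein-coding genes. The data are ChIP-seq peak lists. In ChIP-seq, DNA that comes down with a chromatin-bound protein is sequenced, which marks where that protein sits on the genome. The bound protein was CG6765, carried by a transgenic fly line as a stably expressed fusion with a C-terminal enhanced green fluorescent protein (eGFP). Chromatin came from whole embryos of mixed sex collected 0 to 24 h after laying, in 3 biological replicates of 1 line that form the only group. The descriptions name an antibody against GFP, while the antibody label gives CG6765, and a possible control experiment is not analysed here. Whole embryos of this age range mix many cell types and stages, so a peak is an average over them, and a site bound in few cells cannot be told apart from a site bound weakly in many.

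The small ribosomal subunit binds the messenger RNA, scans to the start codon and houses the decoding centre, where codons are matched to transfer RNAs. Its proteins are needed in near-equal amounts, and loss of 1 copy of many of these genes gives flies the Minute phenotype of slow development and short bristles. Drosophila ribosomal protein genes are known for an unusual initiator, the TCT motif, at which transcription starts on a C within a run of pyrimidines and which replaces the common initiator.

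Each replicate list, and the list called on the pooled replicates, held 30000 candidate regions, and the authors' list thresholded for reproducibility held 3816, which were exactly the pooled candidates of highest signal. A peak's value is the authors' signal, of no stated unit, so peaks are given by signal within a list and by rank between lists, where rank 1 is the highest signal. A gene was given the strongest summit, the position of the highest signal in a peak, within 500 bp of any annotated start site. An offset is the distance of that summit to the nearest start site on the gene's strand, with negative values upstream. The lists hold no read numbers, and the depth behind each peak is unknown.

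The DNA near the annotated start sites of most of these genes holds a short word that resembles the TCT initiator. A match to the word does not show where transcription starts, which was not measured here. The lines below run from 40 bases before to 20 bases after an annotated start site, 5′ to 3′ on the gene's strand, on assembly dm6, with bases from NCBI RefSeq. Capitals mark the words TCTTT and CCTTT whose C lies within 10 bases of the start site, here called the TCT word. Where a gene had the word at any annotated start site, a start site with the word is shown. The first 8 genes had a thresholded peak and are shown because the C of their word lies within 50 bp of the summit and because they include peak-bearing members of 5 of the 6 paralogue pairs. In these 8 the C lay 4 to 9 bases after the annotated start site, not on it.
RpS25 (chr3R:11216267-11216327, minus strand): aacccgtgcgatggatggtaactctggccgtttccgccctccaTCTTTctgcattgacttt
RpS10b (chrX:19598000-19598060, plus strand): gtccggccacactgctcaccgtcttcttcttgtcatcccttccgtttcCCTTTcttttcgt
RpS28b (chrX:9554583-9554643, plus strand): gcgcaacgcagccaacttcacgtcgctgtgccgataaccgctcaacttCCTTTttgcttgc
RpS5a (chrX:17148244-17148304, minus strand): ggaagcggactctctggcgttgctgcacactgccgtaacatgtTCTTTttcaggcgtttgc
RpS19a (chrX:16637854-16637914, plus strand): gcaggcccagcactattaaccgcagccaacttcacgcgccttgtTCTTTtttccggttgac
RpS3A (chr4:67187-67247, minus strand): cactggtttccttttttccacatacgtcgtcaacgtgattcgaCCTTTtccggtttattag
RpS14b (chrX:7934858-7934918, plus strand): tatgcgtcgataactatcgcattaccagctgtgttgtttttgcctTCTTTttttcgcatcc
RpS14a (chrX:7933702-7933762, plus strand): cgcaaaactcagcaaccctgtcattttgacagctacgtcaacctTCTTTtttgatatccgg
The next 4 genes are paralogues of members of that set and had no thresholded peak at a start site. Of these 4 the word was found only in RpS5b.
RpS5b (chr3R:14901543-14901603, minus strand): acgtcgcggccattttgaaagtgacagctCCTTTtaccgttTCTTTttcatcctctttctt
RpS10a (chr3R:27652720-27652780, plus strand): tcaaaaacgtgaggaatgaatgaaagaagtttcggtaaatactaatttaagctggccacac
RpS19b (chr3R:23933510-23933570, minus strand): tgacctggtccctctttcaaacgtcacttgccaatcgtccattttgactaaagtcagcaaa
RpS28a (chr3R:30022628-30022688, minus strand): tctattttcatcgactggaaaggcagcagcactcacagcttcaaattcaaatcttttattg

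A thresholded CG6765-eGFP peak lay at a start site of 30 of the 39 small-subunit genes, which is 76.9% (95% Wilson interval 61.7 to 87.4). Over all protein-coding genes the share was 17.0%. A pooled candidate of any strength lay at 35 of the 39, which is 89.7%, against 49.3% of all protein-coding genes. The peaks were also strong within the thresholded list. Their median signal was 382, against 207 for all protein-coding genes with a thresholded peak, and 22 of the 30 were among the 954 strongest of the 3816 peaks, against 31.2% of all genes with such a peak. The median rank of the pooled candidates was 574 for the members and 6455.5 for all protein-coding genes with a candidate. Intervals cover the counting of genes only.

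The same was seen list by list. Among the 3816 strongest summits of replicate 1 were those of 26 members, or 66.7%, against 15.5% of all protein-coding genes. In replicate 2 the count was 31, or 79.5%, against 17.0% of all protein-coding genes, and in replicate 3 it was again 31, or 79.5%, against 17.0%. The replicate 3 count includes RpS28a, with its summit at 498 bp, and RpS10a, at -360 bp. Neither had a thresholded peak within 500 bp. The mean share over replicates was 75.2% ± 7.40 for the members and 16.4% ± 0.841 for all other protein-coding genes (SD, n = 3). The difference of 58.9 ± 6.56 percentage points was positive in 3 of 3 replicates, and its exact sign-flip test over replicates gave a two-sided p of 0.25, the smallest that 3 replicates allow. The labels number the replicates as biological and name 1 fly line, so the spread is that between these embryo collections.

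**Figure D1:**
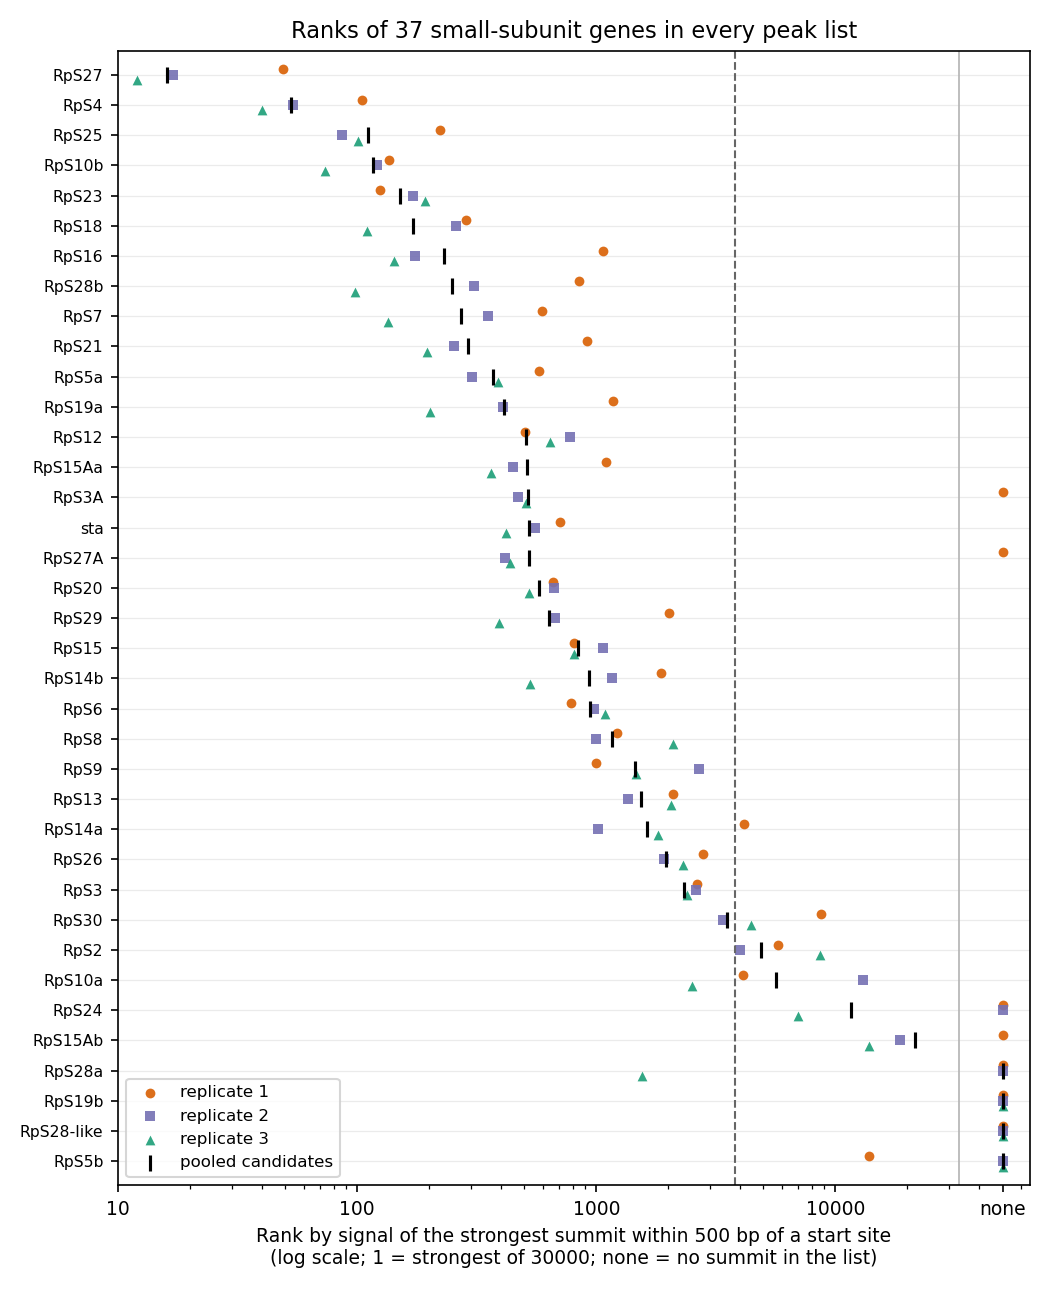
Rank by signal (log scale, 1 is the strongest of 30000) of the strongest summit within 500 bp of a start site for 37 of the 39 small-subunit genes, ordered by pooled rank, in replicates 1 to 3 (points) and in the pooled candidates (black ticks). The dashed line is rank 3816, where the thresholded list ends, and points at "none" had no summit in that list: 29 of the genes drawn lie left of the line by their pooled rank, led by RpS27 at rank 16.

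RpS27, which encodes a zinc-binding protein, carried the strongest peak of the group. Its signal was 1233 at pooled rank 16, and its ranks were 49, 17 and 12 in replicates 1, 2 and 3. The summit was at position 25247514 of chromosome arm 3R, at an annotated start site (offset 0 bp). RpS4, an RNA-binding protein of the body, followed with a signal of 915 at pooled rank 53 and ranks of 105, 54 and 40 in replicates 1, 2 and 3. Its summit, at position 13041801 of arm 3L, was also at an annotated start site. These were the 2 members among the 100 strongest thresholded peaks, and both kept a rank of 105 or better in each replicate list.

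RpS25, a protein of the subunit's head, had a signal of 748 at pooled rank 111. Its ranks were 222, 86 and 101 in replicates 1, 2 and 3, and its summit lay 30 bp upstream of its only start site. RpS10b, in the head near the messenger RNA entry, had a signal of 741 at pooled rank 117, with ranks of 136, 121 and 73 and an offset of -17 bp. RpS23, a protein of the decoding centre, had a signal of 662 at pooled rank 151. It ranked 124, 172 and 192 in replicates 1, 2 and 3, with an offset of -1 bp, and was one of 4 members that ranked best in replicate 1. RpS18, a head protein that contacts the large subunit, had a signal of 629 at pooled rank 172, with ranks of 284, 258 and 110 and an offset of 5 bp.

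The other members of the leading 10 differed more between replicates. RpS16, whose tail reaches the transfer RNA in the peptidyl site, had a signal of 544 at pooled rank 230, but ranked 1069 in replicate 1 against 175 and 143 in replicates 2 and 3. RpS28b, at the messenger RNA exit, had a signal of 535 at pooled rank 249 and ranked 844, 307 and 98. RpS7, needed for pre-ribosomal RNA processing in human cells, had a signal of 520 at pooled rank 273 and ranked 592, 353 and 134. RpS21 had a signal of 506 at pooled rank 291 and ranked 916, 254 and 195. In each of these 4 genes replicate 1 gave the lowest-placed rank and replicate 3 the best.

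The remaining 20 peak-bearing members ran from RpS5a, at pooled rank 369 with a signal of 453, down to RpS30 at rank 3510 with a signal of 141. RpS30, made as a fusion with a ubiquitin-like protein, was the last member inside the threshold, where the least signal of the whole list was 135. It was among the 3816 strongest summits in replicate 2 alone (rank 3377), with ranks of 8720 and 4423 in replicates 1 and 3. RpS6, the target of S6 kinase, stood at pooled rank 940, with ranks of 782, 981 and 1087. RpS3, at the messenger RNA entry, stood at rank 2332, with ranks of 2637, 2615 and 2395. RpS12, known in flies for its part in the competition between Minute and normal cells, stood at rank 509, with ranks of 503, 780 and 643. sta, the uS2 protein first known from the stubarista mutation, stood at rank 522, with ranks of 705, 555 and 421.

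All 30 thresholded members had a candidate summit within 500 bp of a start site in replicates 2 and 3, and 28 had one in replicate 1. The exceptions were RpS3A and RpS27A. RpS3A, a protein of the platform, stood at pooled rank 519 and ranked 472 and 510 in replicates 2 and 3, while the nearest replicate 1 summit was 1383 bp away. RpS27A, which is made as a fusion with ubiquitin, stood at pooled rank 523 and ranked 414 and 437, with the nearest replicate 1 summit 5451 bp away. Among the 954 strongest thresholded peaks genome-wide, 9 lacked a replicate 1 summit within 500 bp, and 0 lacked one in replicates 2 or 3. In all, 26 thresholded members were among the 3816 strongest summits of all 3 replicates, 3 of 2 replicates and 1 of 1 replicate.

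Replicate 1 placed the members lower as a group. Of the 28 members with ranks in all 3 replicates, 21 had their lowest-placed rank in replicate 1, 4 in replicate 2 and 3 in replicate 3, and 17 had their best rank in replicate 3. Over the 2248 protein-coding genes with a thresholded peak and ranks in all 3 replicates, 39.0% had their lowest-placed rank in replicate 1. The median rank of the thresholded members was 880 in replicate 1, 513.5 in replicate 2 and 429 in replicate 3. Over those 2248 genes it was 1760, 1658 and 1672.5 in the same lists. The order of the members was kept most closely between replicates 2 and 3. As a description over 28 genes that share libraries, Spearman's rank correlation was 0.93 between replicates 2 and 3, 0.79 between replicates 1 and 2, and 0.76 between replicates 1 and 3.

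The summits sat almost on the start sites. The median offset of the 30 thresholded members was -1.5 bp, in a range of -102 to 111 bp, and its median size was 16 bp. Of the 30 summits, 16 lay upstream, 2 at the start site and 12 downstream. At most 50 bp separated the summit from a start site in 26 of 30 members, or 86.7%, against 20.5% of the 2340 other protein-coding genes with a thresholded peak, whose median offset was -120 bp. The position is not particular to the small subunit: among the large-subunit genes with such a peak it was 39 of 47, or 83.0%. In the replicate lists, 76.9%, 96.8% and 77.4% of the members' strong summits were within 50 bp in replicates 1, 2 and 3, a mean of 83.7% ± 11.3, against 19.3% ± 2.20 for other protein-coding genes (SD, n = 3). The difference was positive in 3 of 3 replicates (64.5 ± 12.9 percentage points, exact sign-flip test, two-sided p = 0.25, the smallest possible).

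Members have more annotated start sites than most genes, a median of 2 against 1 for other protein-coding genes with a thresholded peak, which makes a near start easier to find. Among genes with 1 start site the summit lay within 50 bp in 9 of 11 members, against 15.4% of 1195 other genes. Counting from the canonical start only, it was within 50 bp in 24 of 30 members, against 15.6% of other genes. Counting only genes whose start is the closest coding start to their peak, as a divergent neighbour can share a peak, it was 26 of 30 members against 25.8% of 1797 other genes.

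**Figure D2:**
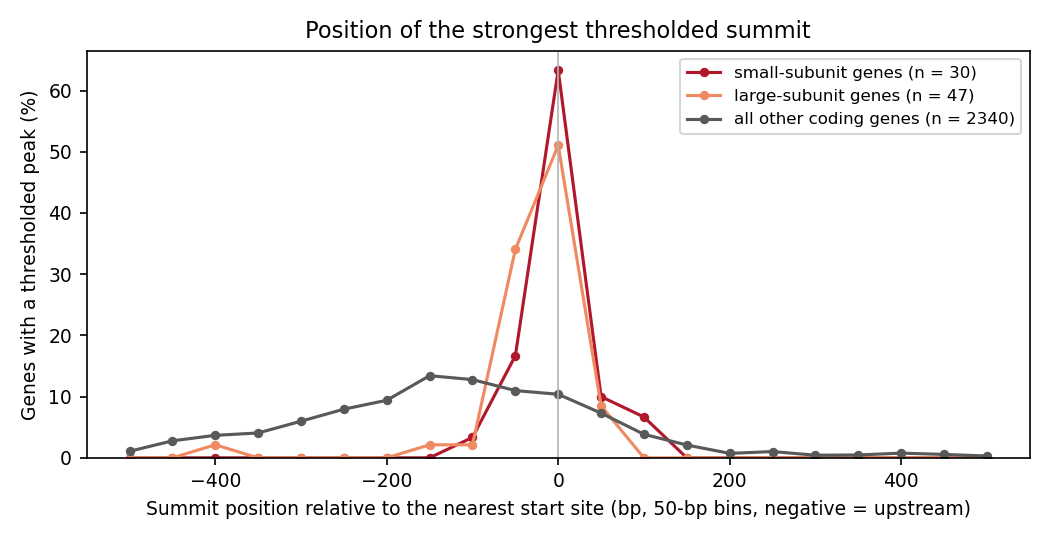
Position of the strongest thresholded summit relative to the nearest start site, in 50-bp bins (negative is upstream), as the percentage of genes with such a peak: 30 small-subunit genes, 47 large-subunit genes and 2340 protein-coding genes outside the small subunit, large-subunit genes included. The small-subunit and the large-subunit summits both peak at 0 bp, while the 2340 genes outside the small subunit spread broadly upstream around a median of -120 bp.

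The 4 members whose summit lay farther than 50 bp from a start were RpS20 (-102 bp), RpS13 (61 bp), RpS3 (78 bp) and RpS9 (111 bp). The strongest summit of RpS20, a head protein, was upstream in every list, at -87, -152 and -149 bp in replicates 1, 2 and 3. Weaker summits lay nearer to its start, at a distance of 67 bp in replicate 2 and 98 bp in the pooled candidates. RpS13 was downstream in every list, at 62, 43 and 59 bp. RpS9, known from yeast for a part in accurate decoding, had offsets of 112 bp in replicates 1 and 3 and of -2 bp in replicate 2, and RpS3 had offsets of 143, -16 and 34 bp. The side of the strongest summit was thus the same in all 3 replicates for RpS20 and RpS13, and not for RpS9 and RpS3. The SD of the offset was 36.7 bp for RpS20 and 10.2 bp for RpS13. Over the 28 thresholded members with summits in all 3 replicates, the SD of the offset over replicates had a median of 15.3 bp and ran from 1.53 bp for RpS28b to 81.3 bp for RpS3.

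Some of these promoters are shared with another gene. In 12 of the 30 peak-bearing members another protein-coding start lay within 500 bp of the summit, on the opposite strand in 11. In these 11 the member's own start was always the closer one. For RpS27 the summit was 0 bp from its start and 144 bp from that of Nup37, a nuclear pore gene. For sta the distances were 15 bp and 172 bp to inc, for RpS25 30 bp and 218 bp to CG4820, and for RpS20 102 bp and 231 bp to CG17271. The exception was RpS27A, which shares its annotated start with Ip259 on the same strand, both 27 bp from the summit, so that peak cannot be given to either gene alone. The other 18 had no coding neighbour within this distance. The same count was not made over all promoter peaks, so whether 12 of 30 is unusual cannot be told.

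The TCT word was found at a start site of 27 of the 30 members with a thresholded peak (90%) and of 2 of the 9 without one. It was found in 10.7% of the 2340 other protein-coding genes with a thresholded peak and in 6.35% of all protein-coding genes. The common initiator word TCAGT, searched in the same window, was found in 0 of the 39 members and in 23.7% of the other genes with a peak. Among genes with 1 start site the TCT word was found in 9 of 11 members with a peak, against 6.03% of 1195 other genes with a peak. The 3 peak-bearing members without it were RpS12, sta and RpS20. In the 27 with it, the summit lay at a median of -12 bp from the C, upstream of it in 19 and downstream in 8, and within 50 bp in 24.

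The TCT word was not found only under peaks. Outside the cytoplasmic ribosomal protein genes, 25.7% of the 810 genes with the word had a thresholded peak, against 16.0% of the 13042 genes without it. Both were searched at any annotated start site, so genes with more start sites have more chances of each. The part of this in the difference was not tested. Among the small-subunit genes, 27 of the 29 with the word had a thresholded peak, and RpS12, sta and RpS20 had one without the word. RpS24 and RpS5b carried the word and had no thresholded peak.

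Further words known from fly promoters were counted around the summits. They were searched in either orientation up to 50 bp from the summit and set against all 2054 thresholded peaks at coding promoters, the members' own included. The word of the DNA replication-related element (DRE), TATCGATA, bound in flies by the factor DREF, was in 5 of 30 members (16.7%, Wilson interval 7.34 to 33.6) against 2.58% of promoter peaks. Its core, ATCGAT, which lies inside the DRE word, was in 9 of 30 (30%, interval 16.7 to 47.9) against 5.99%. The E-box word CAGCTG was in 5 of 30 (16.7%, interval 7.34 to 33.6) against 5.11%, in RpS27, RpS16, RpS21, RpS14b and RpS6. The core of Motif 1, GGTCACAC, bound by M1BP, was in 2 members, RpS15 among them, or 6.67% (interval 1.85 to 21.3) against 1.95%. The background share lay below the members' interval for the DRE, its core and the E-box, and inside it for Motif 1. For the E-box this did not hold in wider windows: within 100 bp the shares were 16.7% (interval 7.34 to 33.6) and 11.7%, and from 250 before to 50 after the canonical start site 16.7% of members against 17.9% of all promoters. For the DRE it did not hold within 25 bp, at 3.33% (interval 0.591 to 16.7) and 1.27%.

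The words of the GAGA factor and the TATA box had lower shares at the members than at promoter peaks within 50 bp, but both backgrounds lay inside the members' intervals. The word GAGAG of the GAGA factor was near 1 summit, that of RpS5a, or 3.33% (interval 0.591 to 16.7), against 14.1% of promoter peaks. The TATA word TATAAA was near 2, those of RpS25 and RpS27A, or 6.67% (interval 1.85 to 21.3), against 18.6%. Within 100 bp the TATA word was in 10% of members (interval 3.46 to 25.6) against 31.5% of promoter peaks, above the interval, whereas in the window of 250 before to 50 after the canonical start it was in 53.3% of members against 45.3% of all promoters. In that last window the GAGA word was in 13.3% of members (interval 5.31 to 29.7) against 30.3% of all promoters, just above the interval. The members' 50-bp windows were also richer in G and C, with a median of 47.0% against 38.6% for promoter peaks, and 25 of 30 lay above that median. The part of this base composition in the counts of single words was not tested.

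The 5 DRE words near the summits are shown to give their setting, in capitals with 10 bases on each side, on the plus strand of dm6, with bases from RefSeq. Their centres were 25.5 bp from the summit in RpS25, 22.5 bp in RpS12, 6.5 bp in RpS29, 46.5 bp in RpS6 and 41.5 bp in RpS14a.
RpS25 (chr3R:11216329-11216356, plus strand): ctcgcctgccTATCGATAgttggtggtg
RpS12 (chr3L:13023301-13023328, plus strand): tctgcgaaacTATCGATAtttgtaccaa
RpS29 (chr3R:9778047-9778074, plus strand): tcgtggaaaaTATCGATActgccacccc
RpS6 (chrX:7901369-7901396, plus strand): taccgccgcaTATCGATAgttcgtgctc
RpS14a (chrX:7933668-7933695, plus strand): acacactcccTATCGATAagctatcgcc

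**Figure D3:**
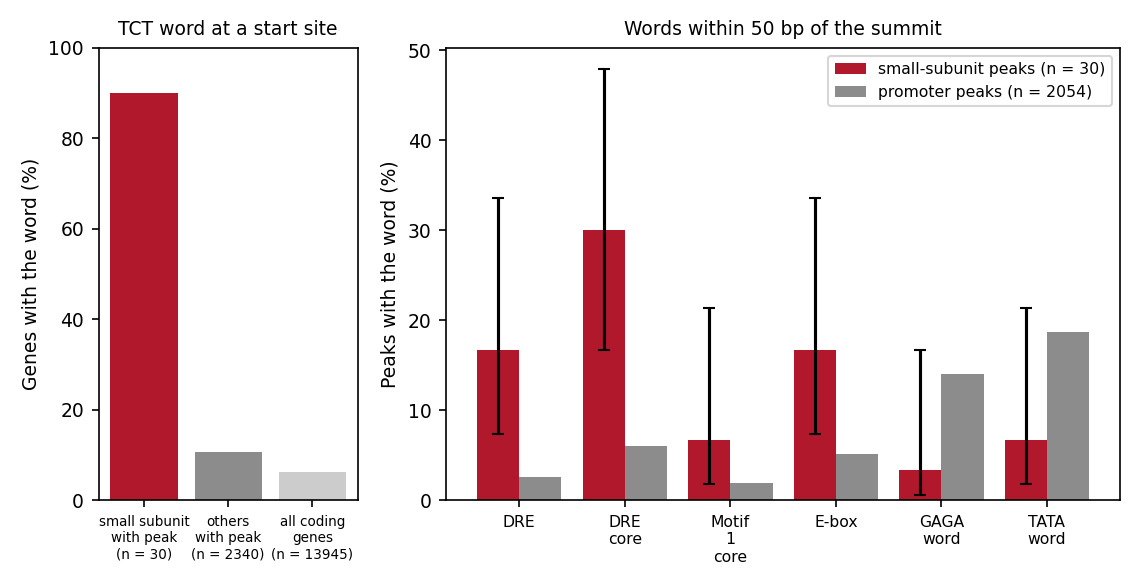
Left, percentage of genes with a TCT word at a start site: 30 small-subunit genes with a thresholded peak, 2340 other protein-coding genes with one, and all 13945 protein-coding genes. Right, percentage of the 30 small-subunit peaks (red, Wilson 95% intervals) and of 2054 promoter peaks (grey) that hold each word within 50 bp of the summit. The TCT word stands at 90% against 10.7% and 6.35%, the DRE core at 30% against 5.99% and the GAGA word at 3.33% against 14.1%.

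Of the 9 members without a thresholded peak, 5 had a weaker pooled candidate. RpS2, near the messenger RNA entry and known in flies from the string of pearls mutation, had a candidate at pooled rank 4904 and -12 bp. Its strongest summits in replicates 1, 2 and 3 ranked 5768 (-3 bp), 3993 (-9 bp) and 8657 (335 bp). The replicate 3 summit nearest to the pooled one, 18 bp away, ranked 12453. RpS24, of the body, had one at pooled rank 11671 and 165 bp. Only replicate 3 had summits within 500 bp of its start. The strongest, of rank 6954, was at 379 bp, and the one at the pooled summit had rank 7664. RpS10a and RpS15Ab are described with their paralogues.

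The other 4 had no pooled candidate within 500 bp. RpS28a came closest, with a thresholded summit 515 bp from its start, just outside the distance used. That summit, of signal 158 and rank 2770, was 88 bp from the start of Mgat2, and in replicate 3 a summit of rank 1547 was 498 bp from the RpS28a start. RpS19b had its nearest thresholded summit at 819 bp and none within 500 bp in any replicate. RpS28-like had none in any replicate either, and its nearest thresholded summit, at 5476 bp, was 77 bp from the start of scat. RpS5b had a replicate 1 summit of rank 13795 at 391 bp and none in replicates 2 and 3.

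Outside the paralogue pairs, 23 of 26 members had a thresholded peak, and the exceptions included RpS2 and RpS24. Within the 6 pairs, 5 had the peak at 1 gene only and 1 pair had it at both. Several of the genes without the peak, RpS5b, RpS10a and RpS19b, are known in Drosophila as copies expressed mainly in the gonads.

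**Figure D4:**
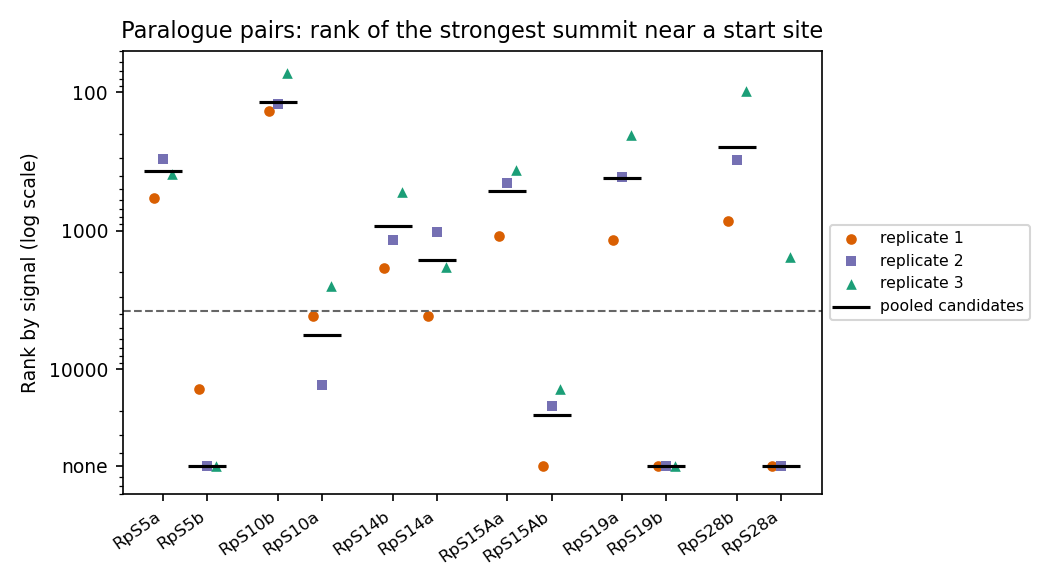
Rank by signal (log scale, strongest at the top) of the strongest summit within 500 bp of a start site for the 6 paralogue pairs, in replicates 1 to 3 (points) and in the pooled candidates (black bars). The better-ranked gene of each pair is on the left, the dashed line is rank 3816 and "none" means no summit in that list: in the RpS14 pair both pooled ranks are above the line, in the other 5 pairs only the left gene's is.

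RpS5a, of the head near the messenger RNA exit, had ranks of 578, 302 and 387 in replicates 1, 2 and 3, against no pooled candidate at RpS5b. The proteins of the pair are 78.5% identical over 233 aligned positions. RpS10b ranked 136, 121 and 73, against 4113, 13014 and 2524 at RpS10a, whose pooled candidate stood at rank 5665 with an offset of -354 bp. These proteins are 73.6% identical. In replicate 3 RpS10a was thus inside the 3816 strongest summits, though far from its start, at -360 bp. Its offsets in replicates 1 and 2 were -388 and -138 bp.

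RpS15Aa ranked 1096, 449 and 362, at a pooled signal of 385 and an offset of -10 bp. RpS15Ab had no replicate 1 candidate and ranked 18544 and 13888 in replicates 2 and 3, although the proteins are 97.7% identical. RpS19a, the fly counterpart of a gene mutated in human Diamond-Blackfan anaemia, ranked 1171, 407 and 202 at a pooled signal of 432, against no candidate at RpS19b in any list. The proteins of this pair are 65.4% identical. RpS28b ranked 844, 307 and 98, while RpS28a, 81.5% identical to it, had a single summit within 500 bp, that of replicate 3. RpS28-like is 38.2% identical to RpS28b and 36.8% to RpS28a.

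The RpS14 genes, which encode the same protein (151 of 151 residues identical), lie 1156 bp apart on the X chromosome and each had its own thresholded peak. RpS14b had a pooled signal of 280 at rank 928 with an offset of -38 bp, and ranked 1871, 1162 and 527. RpS14a had a signal of 210 at rank 1632 with an offset of -19 bp, and ranked 4137, 1017 and 1820. RpS14b was better placed in replicates 1 and 3 and RpS14a in replicate 2, so the replicates do not give 1 order for the pair. Reads from sequence that the copies share may align to either, and the part of this in the 2 peaks was not tested. In the pairs with 1 peak the TCT word was found in RpS10b, RpS15Aa, RpS19a and RpS28b and not in their partners. RpS5a and RpS5b both held it. The contrast depends on the 10-base reach, as the printed RpS28a line holds a TCTTT just beyond it. In RpS10b and RpS28b the C lay 9 bases after the start site shown. RpS10b had 3 annotated start sites and RpS15Aa and RpS19a had 2, against 1 in each partner, which makes the word easier to find.

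Peaks were found on every arm. All 9 members on the X chromosome had a thresholded peak, against 14.6% of all protein-coding genes there. On arm 3L it was 4 of 4 members against 17.4%, on 3R 8 of 12 against 17.8%, on 2L 4 of 6 against 17.0% and on 2R 4 of 7 against 17.5%. On chromosome 4 the only member, RpS3A, had one, against 17.5% of all genes there. Of the 13 members with a Minute locus name among their synonyms, 12 had a thresholded peak, and of the other 26, 18 had one. Small nucleolar RNAs (snoRNAs), which guide ribosomal RNA modification, lay within 13 members, 43 snoRNA genes in all, and 12 of these 13 hosts had a thresholded peak, as did 18 of the 26 members that host none.

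Among related gene lists, the 54 large-subunit genes were most like the small-subunit genes. A thresholded peak lay at 47 of them, or 87.0%, at a median offset of -15 bp, and the TCT word was found in 46. The mean share with a strong summit was 75.2% ± 7.40 for the small-subunit genes and 81.5% ± 3.70 for the large-subunit genes (SD, n = 3). The difference was negative in 3 of 3 replicates (-6.27 ± 4.59 percentage points, exact sign-flip test, two-sided p = 0.25, the smallest possible), so a test of this size cannot separate the families. The leading large-subunit gene, RpL7, had a signal of 1195 at rank 19, next to RpS27 at rank 16. Rack1, a protein of the small subunit's head outside the naming rule, had a signal of 539 at rank 239, between RpS16 and RpS28b.

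**Figure D5:**
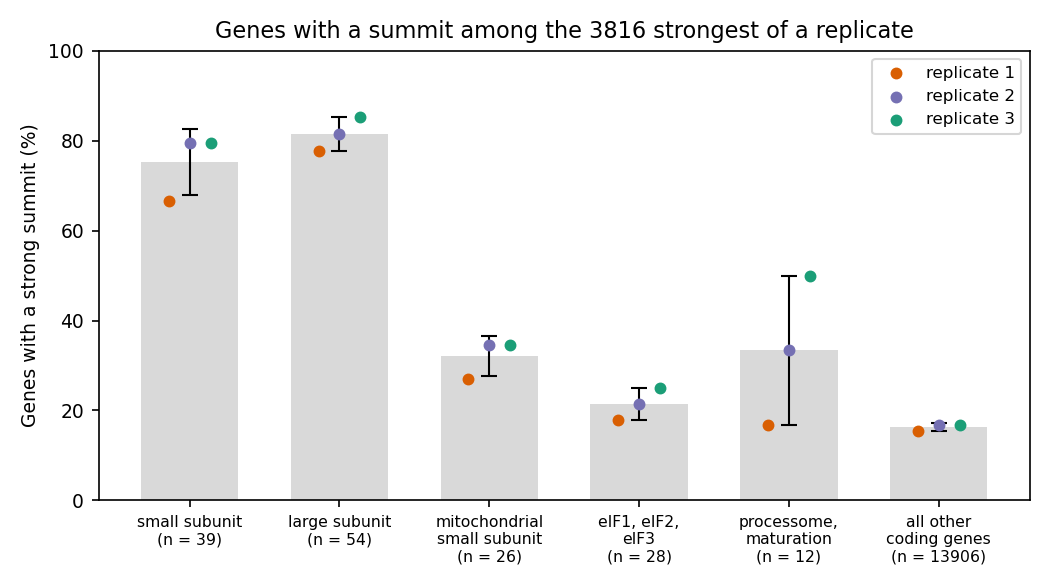
Percentage of genes with a summit among the 3816 strongest of a replicate within 500 bp of a start site, for the 39 small-subunit genes, 4 related gene lists and all protein-coding genes outside the small subunit. Points are the 3 replicates, bars their mean and whiskers the SD: the small-subunit mean is 75.2%, the large-subunit mean 81.5% and that of all other genes 16.4%.

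Genes that work with the small subunit, or serve its mitochondrial counterpart, were counted in the same way. A thresholded peak lay at 7 of 26 mitochondrial small-subunit genes, led by mRpS23 with a signal of 1266 at rank 14. It lay at 7 of 28 genes of the initiation factors eIF1, eIF2 and eIF3, which bind the small subunit, led by eIF1 at rank 211. It lay at 3 of 12 processome and maturation genes, which assemble the subunit in the nucleolus, led by nop5 at rank 768. These shares were 26.9%, 25% and 25%, against 17.0% of all protein-coding genes. That background lay inside each list's Wilson interval (13.7 to 46.1, 12.7 to 43.4 and 8.89 to 53.2). The strong-summit shares of these lists over replicates averaged 32.1% ± 4.44, 21.4% ± 3.57 and 33.3% ± 16.7 in that order, against 16.4% ± 0.841 for all genes outside the small subunit (SD, n = 3). No thresholded summit of the mitochondrial or processome lists was that close to a start site (0 of 7 and 0 of 3 within 50 bp), while 3 of the 7 initiation factor summits and that of Rack1, at -3 bp, were.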

How the data were processed

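ChIP-seq peak lists of 3 biological replicates in 1 group were used on assembly dm6. The deposited lists give per peak the authors' signal, called against a control per the labels, a q-value written as −log10, and a summit. The deposited −log10 q-value of the pooled candidates was not used to rank, since its highest value was shared by most members' peaks. The deposited summit column counts bases from the peak's start, per the file's values. Which aligner, peak caller and threshold the authors used is not stated in the sources at hand. Lists on dm3 were not used.

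Gene models were Ensembl release 115 (BDGP6.54). A gene was assigned the summit of highest signal within 500 bp of any start site, with Python 3.11.15, pandas 2.3.3 and SciPy 1.17.1. The assignment was tested on simulated summits. Protein identity came from translated coding sequence, aligned globally with BLOSUM62 and gap penalties of 11 and 1 in Biopython 1.88, longest protein per gene. Members and lists were chosen with earlier results of these data known. Full values are given for the 10 members of highest signal, members without a thresholded peak and paralogues. Other members named singly were chosen after their values were seen. Depth is unknown, and Wilson intervals (95%) cover counting only. Results of some members are counted but not reported singly here.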

Additional observations from a re-analysis of the deposited data

How the results depend on the processing

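Of 44 recomputed values, 36 stayed within 1.5 times, the SD or the interval of the value reported and 8 moved further. Members with a thresholded peak numbered 30 within 250 bp (13.5% of all genes), 32 within 1000 bp (19.7%), 27 with only the stronger 50% of the peaks (9.44%), 30 at the canonical start (14.6%) and 30 by overlap of the peak (11.8%). With the 1000 strongest summits per replicate, the mean share of members with a strong peak moved to 49.6%. Members with another gene's start near the summit numbered 5 within 250 bp and 19 within 1000 bp. Within 25 bp of the summit, 3.33% of members held the DRE, 13.3% the DRE core and 0% the TATA word, against 1.27%, 3.21% and 9.79% of promoter peaks, and the DRE background then lay inside the members' interval. In the window from 250 before to 50 after the canonical start, 36.7% held the DRE, against 8.95% of all promoters, and 53.3% the TATA word, against 45.3%. In that window the TATA word thus turned from a lower to a higher share at the members, and the E-box from a higher to a lower one (16.7% against 17.9%). Settings chosen after seeing the data gave 23 members with the TCT word when the C lay within 5 bases of a start, against 5.73% of other genes with a peak, and 19 at the canonical start, against 6.20%. The median offset lay between -10 and 0.5 bp without one replicate and changed sign without replicate 2, so its sign is not settled. No paired analysis was possible because the samples form 1 group.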

Other observations

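The word AACTATCG was singled out after the sequences had been seen, so its count is only a description. It lay within 100 bp of the summit, on either strand, in 9 of 30 small-subunit members, against 2.58% of 2054 thresholded promoter peaks. It overlaps the left part of the DRE word, and within 50 bp of the summit it was in 3 of 30 members, against 1.12%.

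Over all 3816 thresholded peaks, 89 lacked a replicate 1 summit within 500 bp, against 21 in replicate 2 and 21 in replicate 3. RpS3A and RpS27A are the small-subunit members among the 9 of the 954 strongest without one. The cause was not tested.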
